A study of Mus musculus with 44 samples.

Results

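Early lymphoid priming was followed through 10 genes that lymphoid-biased progenitors and early B cells are known to use: Dntt, Flt3, Rag1, Il7r, Vpreb1, Igll1, Pax5, Blnk, Cd79a and Cd79b. All probe sets that the platform's probe table assigns to these symbols were taken, which gave 18 of the 12422 probe sets that are not controls. The RNA came from marrow cells sorted as Lin-Sca-1+c-kit+, a gate that holds blood-forming stem cells and multipotent progenitors, from 22 BXD strains with 2 Affymetrix MG_U74Av2 arrays each. BXD strains are inbred descendants of a cross between C57BL/6 and DBA/2 mice, and each carries its own fixed mosaic of the parental genomes. All samples came from females aged 3 to 6 months, the marrow of 3 mice was pooled for each, and the lineage panel (CD3e, B220, Mac-1, TER119 and Gr-1) removed cells that carry the B cell form of CD45. The labels number the arrays in 2 series, and no strain has arrays in both. Series A holds BXD6, BXD8, BXD11, BXD12, BXD31, BXD32, BXD33, BXD38, BXD40 and BXD42 on 20 arrays, and series B holds BXD1, BXD2, BXD5, BXD9, BXD14, BXD16, BXD18, BXD19, BXD21, BXD28, BXD34 and BXD39 on 24 arrays. The labels do not say which pool lies behind each array, so the p-values reflect how far arrays of a strain lie apart, and part of that may be technical. The 2 arrays labelled BXD40 and the 2 labelled BXD42 differ within their pairs at genes that separate strains, so the strain effects, strain differences, series differences and gene pairs were also computed without them.

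Before a progenitor is committed to a lineage it transcribes some lymphoid genes at a low level, which is called priming. Flt3, a receptor tyrosine kinase, marks multipotent progenitors with lymphoid potential, and the interleukin 7 receptor carries them into B and T cell development. Rag1 cuts the antigen receptor genes and terminal transferase, encoded by Dntt, adds bases without a template at the cut ends. The surrogate light chain (Vpreb1 and Igll1) and the CD79 pair then form the pre-B receptor with the heavy chain, Blnk passes its signal on, and Pax5 fixes the B cell identity.

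The brightness of a probe set depends on its own probes, so levels were compared between strains and not between probe sets. Levels are log2 of quantile-normalized intensities with a floor of 4, and means are given with the SD over the 2 arrays of a strain. Of the 18 probe sets, 14 had a mean log2 level above the 40th percentile of the array and were tested. The other 4, each a second probe set of its gene, were left out as dim. Rag1 93683_at lay at the floor on 33 of 44 arrays, Pax5 102578_at on 16, Vpreb1 92972_at on 10 and Blnk 100771_at on 1. Each gene therefore had at least 1 tested probe set, and the brightest stood for it. Suffixes such as _s, _f, _r and _g mark probe sets whose probes can match several transcripts, a sequence family or a relaxed design, and Dntt, Flt3, Rag1, Vpreb1 and Blnk are represented first by such probe sets.

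The promoters of Dntt, Flt3 and Blnk are shown because Dntt and Flt3 varied together over strains, and because Blnk is the gene next to Dntt. Each runs 5′ to 3′ from 250 bases before to 50 bases after the annotated start, from RefSeq on GRCm38.p6, in which 9 of the 10 genes were matched; the promoter of Cd79b was not used here. Dntt lies on the plus strand at chr19:41029025-41029324, Flt3 on the minus strand at chr5:147400440-147400739 and Blnk on the minus strand at chr19:40994172-40994471. Capitals mark matches to the ETS core GGAAGT on either strand.
Dntt: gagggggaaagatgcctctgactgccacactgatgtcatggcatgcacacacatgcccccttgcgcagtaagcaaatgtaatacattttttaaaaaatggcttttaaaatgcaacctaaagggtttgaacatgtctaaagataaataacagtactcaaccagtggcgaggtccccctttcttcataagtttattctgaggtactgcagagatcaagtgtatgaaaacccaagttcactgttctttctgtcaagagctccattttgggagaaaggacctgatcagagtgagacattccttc
Flt3: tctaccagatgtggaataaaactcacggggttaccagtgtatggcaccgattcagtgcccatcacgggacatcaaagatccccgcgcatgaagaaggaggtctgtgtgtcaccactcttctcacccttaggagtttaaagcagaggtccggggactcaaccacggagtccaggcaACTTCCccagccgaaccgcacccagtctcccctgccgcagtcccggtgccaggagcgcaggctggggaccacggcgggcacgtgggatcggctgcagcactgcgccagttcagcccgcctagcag
Blnk: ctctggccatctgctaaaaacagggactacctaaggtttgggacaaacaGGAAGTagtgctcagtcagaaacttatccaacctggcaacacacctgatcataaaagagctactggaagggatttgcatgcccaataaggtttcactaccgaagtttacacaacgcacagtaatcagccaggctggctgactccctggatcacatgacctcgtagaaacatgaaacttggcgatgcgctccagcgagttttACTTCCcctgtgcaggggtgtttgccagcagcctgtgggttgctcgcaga
The search covered both strands of each window for the ETS word GGAAGT, the RUNX word TGTGGT, the Ikaros word TGGGAA, the TATA word TATAAA and the EBF palindrome. The ETS and Ikaros words can share letters. The ETS word was found in Flt3, Rag1, Il7r, Blnk and Cd79a, against 23.8% of all 32851 windows. The RUNX word was found in Rag1, Il7r and Igll1 (16.8% of windows), the Ikaros word in Rag1 (25.6%), and the EBF palindrome (0.904%) and the TATA word (13.6%) in none of the 9. The Dntt window held none of these words, and the match in Flt3 lay at -75 to -70 from the start. A match describes letters only.

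Dntt varied most clearly between strains. On probe set 161409_f_at the BXD34 arrays read 9.80 and 10.24 and the BXD2 arrays 10.53 and 10.42, against 11.29 to 11.99 (median 11.68) on the other 20 series B arrays. All 4 of these arrays lay below every other array of the series. On 103961_s_at the BXD34 arrays read 8.67 and 8.47 and the BXD2 arrays 9.07 and 9.50, against 9.45 to 11.35 (median 10.71) on the other 20. Here 1 of the BXD2 arrays overlapped the others, while BXD34 did not. On 103962_at the BXD34 arrays read 5.20 and 6.01 and the BXD2 arrays 6.29 and 6.96, against 6.24 to 7.81 (median 7.16). BXD34 was again below all other arrays, and BXD2 was not. In bulk samples such as these, fewer cells that carry a transcript and less of it per cell cannot be told apart.

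Against the mean of the other series B strains, Dntt was lower in BXD34 by all its probe sets: the log2 differences were -1.56 ± 0.17 (SE; 2.94-fold, limma adjusted p = 2.24e-06), -1.90 ± 0.26 (3.72-fold, adjusted p = 0.000104) and -1.49 ± 0.28 (2.80-fold, adjusted p = 0.00392). In BXD2 it was lower by 161409_f_at (-1.06 ± 0.17, 2.08-fold, adjusted p = 0.000691) and 103961_s_at (-1.12 ± 0.26, 2.17-fold, adjusted p = 0.0240), while 103962_at did not pass. The same comparison called 0.577% of all tested probe sets lower and 0.537% higher in BXD34, and 0.899% lower and 0.792% higher in BXD2. The calls by 103962_at in BXD34 and by 103961_s_at in BXD2 depended on single arrays: the first was lost without BXD34 replicate 1 (adjusted p = 0.374) and the second without BXD2 replicate 1 or 2 (adjusted p up to 0.330). The second was also lost with median centring (adjusted p = 0.0557). The BXD2 call by 161409_f_at was lost without BXD2 replicate 2 (adjusted p = 0.0766).

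The order of strains for Dntt 161409_f_at in series A ran from BXD11 at 11.19 ± 0.02 (SD, n = 2) through BXD33 at 11.25 ± 0.02 to BXD31 at 11.98 ± 0.01 and BXD38 at 12.17 ± 0.12, a 1.98-fold range. In series B it ran from BXD34 at 10.02 ± 0.31 and BXD2 at 10.48 ± 0.08 to BXD21 at 11.31 ± 0.03, and then from BXD39 at 11.60 ± 0.02 to BXD16 at 11.88 ± 0.05, a 3.64-fold range. Neighbours in that order differed by more than the array SD of 0.20 at 3 of 11 steps in series B, which were the lowest 3, and at 2 of 9 in series A. The remaining neighbours did not differ beyond their spread.

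**Figure D1:**
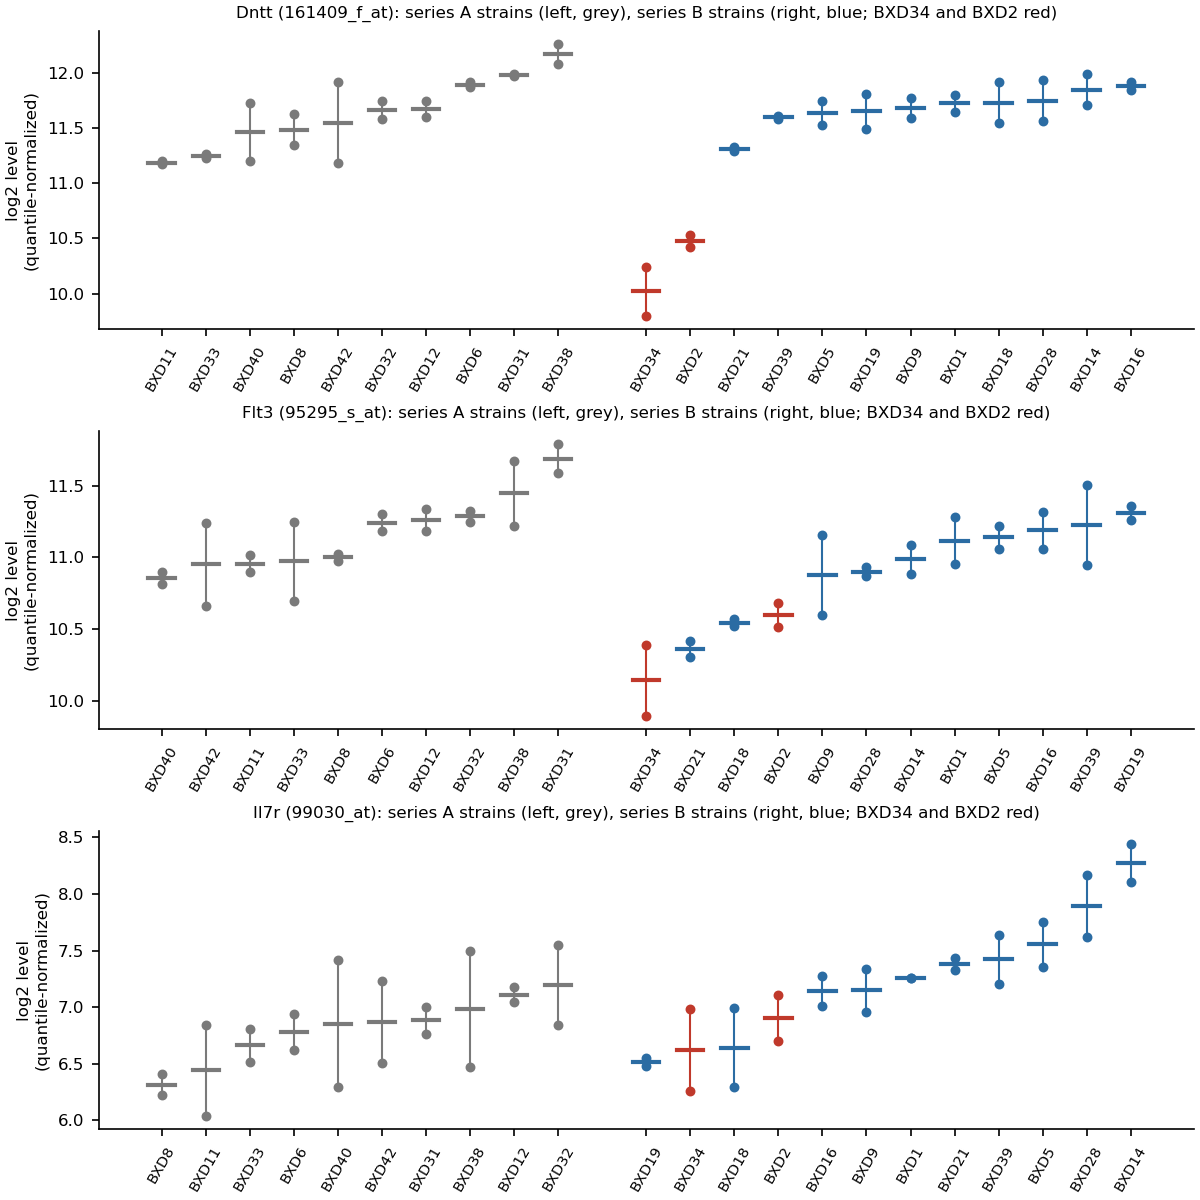
Log2 level (vertical axis) of Dntt, Flt3 and Il7r by strain, series A strains at the left in grey and series B strains at the right in blue, each ordered from low to high. Points are the 2 arrays of a strain and bars their mean; BXD34 and BXD2, in red, hold the lowest Dntt arrays, from 9.80 to 10.53.

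Whether strains differed at all was asked with an F test over the strain contrasts within the series. Of the 14 tested member probe sets 3 passed, Dntt 161409_f_at (adjusted p = 5.87e-05), Dntt 103961_s_at (adjusted p = 0.00122) and Flt3 95295_s_at (adjusted p = 0.0404), against 2.80% of all 7453 tested probe sets. The members were chosen with earlier results of these data known, and the shares were not tested against each other. The third Dntt probe set missed the threshold (adjusted p = 0.0743) and passed without the arrays labelled BXD40 and BXD42 (adjusted p = 0.00188). The share of variance that lay between strains was 0.842 ± 0.11 (jackknife SE over strains) for Dntt 161409_f_at and 0.637 ± 0.12 for Flt3 95295_s_at; the median was 0.164 over the tested member probe sets and 0.0386 over all tested probe sets. The call for Dntt 161409_f_at rested on the strains at its low end: without BXD2 and BXD34, left out after their values were seen, the adjusted p was 0.368, and in series A alone it was 0.552. The call for 103961_s_at was lost without BXD34 (adjusted p = 0.0544), without both (0.312) and in series A alone (0.501). The share between strains for 161409_f_at without both was 0.523.

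Flt3 95295_s_at was lowest in BXD34, with arrays at 10.39 and 9.90, against 10.31 to 11.50 (median 11.01) on the 20 series B arrays of the strains other than BXD34 and BXD2. One BXD34 array overlapped them. BXD21, at 10.36 ± 0.08, BXD18, at 10.55 ± 0.04, and BXD2, at 10.60 ± 0.12, came next, and BXD19 was highest of the series at 11.31 ± 0.07. In series A the range was 10.86 ± 0.06 in the arrays labelled BXD40 to 11.69 ± 0.14 in BXD31. Against the other series B strains BXD34 was lower by 0.79 ± 0.18 (SE; 1.73-fold, adjusted p = 0.0192), a call that was lost without BXD34 replicate 2 (adjusted p = 0.430) and in series B alone (0.0529). The strain effect on Flt3 was near the threshold: it was lost in 31 of 44 fits that left out 1 array (adjusted p up to 0.106), without BXD34 (adjusted p = 0.138), without BXD2 and BXD34 (0.216), with the values as deposited (0.0957), with median centring (0.160), in series A alone (0.709) and in series B alone (0.123). The second Flt3 probe set, 95296_r_at, read 8.78 and 8.58 in BXD34, against 8.04 to 9.40 on those 20 arrays, and showed no strain effect (adjusted p = 0.833).

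Over the 22 strains and the 14 tested probe sets 6 strain differences passed, and all 6 were the Dntt and Flt3 differences of BXD34 and BXD2 given above; the background over all strains and probe sets was 0.442%. The plot of strain differences shows these 6 at the low end of their own probe sets; differences as large as that of Flt3 were also seen for Rag1, Il7r, Pax5 and Cd79a in single strains and did not pass.

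**Figure D2:**
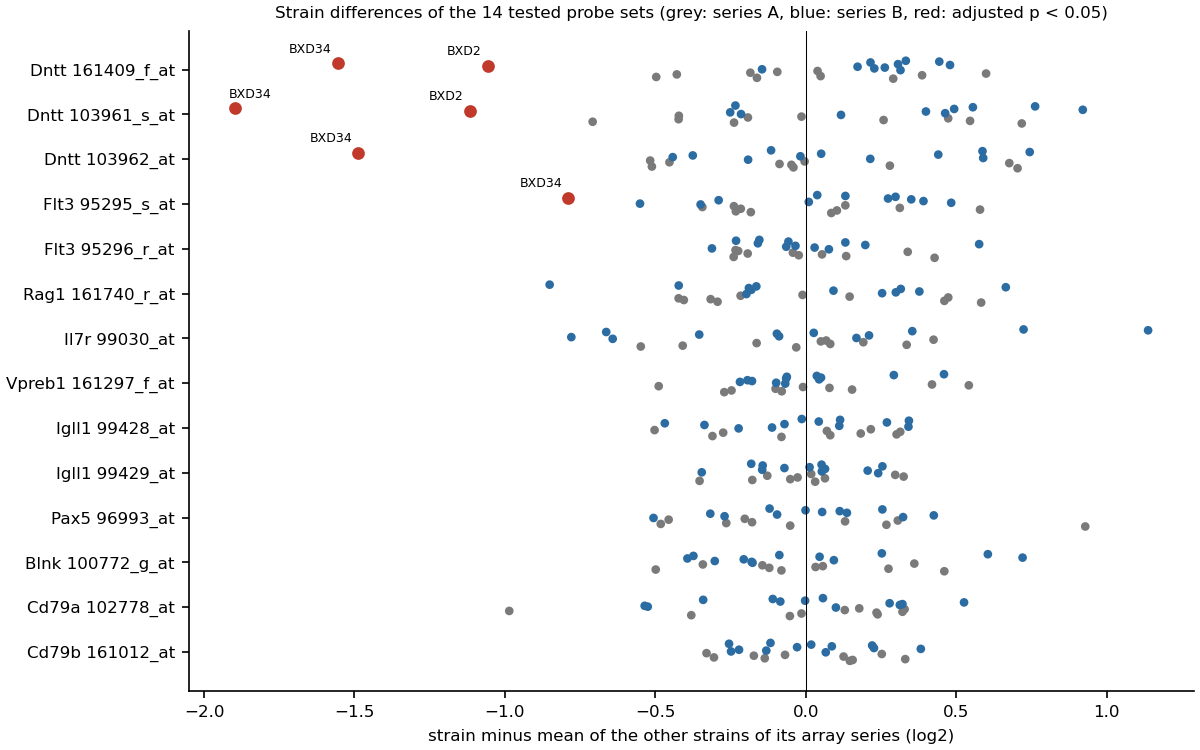
Each point is a strain mean from which the average of the remaining strains in the same series was subtracted (log2, horizontal axis), for the 14 tested probe sets down the page. Grey points are series A strains and blue points series B strains, and the 6 red points passed an adjusted p of 0.05; they run from -1.90 to -0.79.

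Il7r, the receptor chain for interleukin 7, had its highest level in BXD14, with arrays at 8.11 and 8.44, and the next in BXD28, with 8.16 and 7.62. The lowest mean was that of BXD8 in series A, with arrays at 6.41 and 6.22. BXD34 read 6.26 and 6.98 and BXD2 7.11 and 6.70, against 6.29 to 8.44 on the other 20 series B arrays, so 1 BXD34 array lay just under that range and the rest within it. BXD14 stood 1.14 ± 0.28 (SE) above the other series B strains, which missed the threshold (adjusted p = 0.0863), and the strain effect did too (adjusted p = 0.176). It passed in series B alone (adjusted p = 0.0405) and without the arrays labelled BXD40 and BXD42 (adjusted p = 0.0493).

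The recombinase gene Rag1 showed no strain effect on 161740_r_at (adjusted p = 0.951), where arrays of the same strain lay far apart, for example 6.86 and 8.53 in BXD28. The array SD within strains, 0.65, exceeded the SD between strains, 0.37. Its other probe set, 93683_at, was above the floor on both arrays in BXD14 (4.88 and 5.04), BXD1 (4.36 and 4.70) and BXD38 (5.30 and 4.35), and on a single array in 5 further strains.

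For the surrogate light chain, strain means of Vpreb1 161297_f_at ran from 7.24 to 8.17 in series A and from 7.34 to 7.96 in series B, and those of Igll1 99428_at from 6.90 to 7.63 in series A and from 6.86 to 7.60 in series B. In series A the arrays labelled BXD40 and BXD42 gave the lowest and the highest Vpreb1 mean, and those labelled BXD42 the lowest Igll1 mean. No strain effect passed for Vpreb1 (adjusted p = 0.717) or for either Igll1 probe set (adjusted p = 0.855 and 0.899). In BXD34 the Vpreb1 arrays read 7.41 and 7.55, against a median of 7.54 on the 20 arrays of the series other than those of BXD34 and BXD2.

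Among the commitment and signalling genes, Pax5 96993_at was highest in BXD6, with arrays at 8.39 and 8.03. That was 0.93 ± 0.27 (SE) above the other series A strains and missed the threshold (adjusted p = 0.0768); the strain effect had an adjusted p of 0.608. Blnk 100772_g_at read 6.35 and 5.34 in BXD34 and 5.91 and 5.74 in BXD2, against 5.70 to 7.09 (median 6.20) on the other 20 series B arrays, so 1 BXD34 array lay below them. Its strain effect did not pass (adjusted p = 0.731). Cd79a 102778_at, the Ig-alpha chain, was lowest in BXD38, with arrays at 5.80 and 6.01, and Cd79b 161012_at, the Ig-beta chain, ranged from 7.20 to 8.21 over strain means. The strain effect passed for neither (adjusted p = 0.688 and 0.935).

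Series A and series B were compared on strain means. They hold different strains, so strain and series cannot be told apart in this comparison. Cd79a averaged 6.79 ± 0.37 over the strains of series A and 7.36 ± 0.31 over those of series B (SD, n = 10 and 12), a difference of -0.57 ± 0.14 (SE; limma adjusted p = 0.00526). Cd79b went the other way, at 7.91 ± 0.21 in series A and 7.44 ± 0.19 in series B, a difference of 0.48 ± 0.09 (adjusted p = 0.000613). The genes whose proteins pair in 1 complex thus differed in opposite directions between the series. These were 2 of 14 member probe sets, 1 in each direction, and over all tested probe sets 11.1% were higher in A, 10.8% lower in A and 21.8% called in either direction, so the members' share was below the background. Among the other 12 the differences lay between -0.42 for Il7r (adjusted p = 0.0853) and 0.32 for Blnk (adjusted p = 0.0768). The dim Pax5 probe set 102578_at was at the floor on 16 arrays, all of them in series B.

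**Figure D3:**
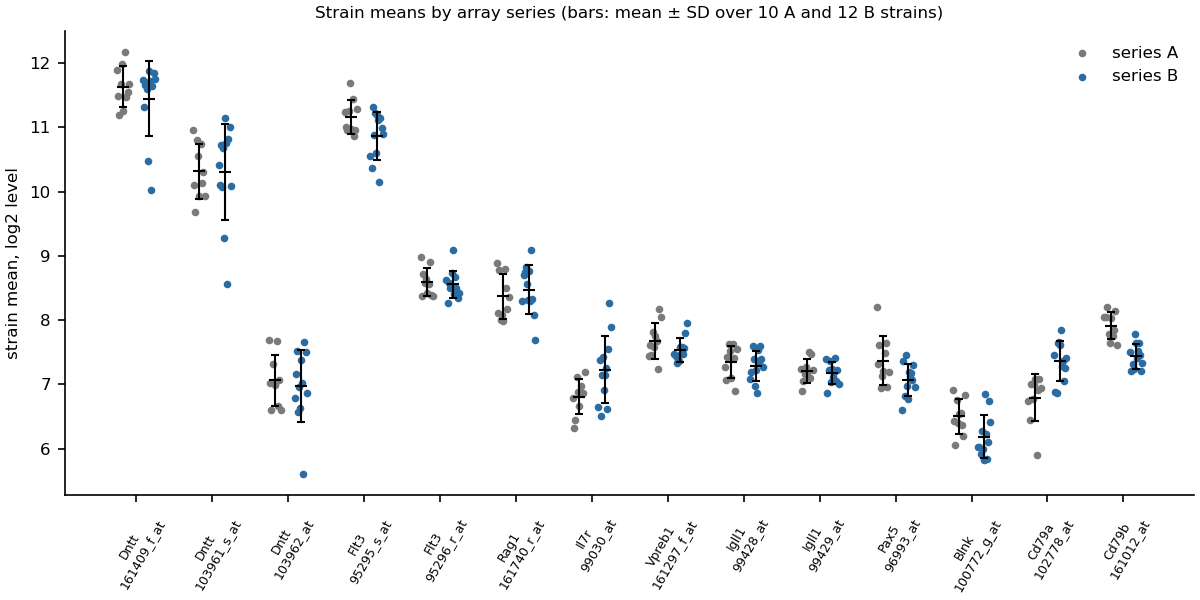
Strain means (log2 level, vertical axis) of the 14 tested probe sets in series A (grey, left of each pair) and series B (blue, right), with the mean and SD over 10 and 12 strains. Cd79a averages 6.79 in series A and 7.36 in series B, Cd79b 7.91 and 7.44; heights of different probe sets are not comparable.

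To see which genes varied together, strain means were centred on the mean of their series and correlated over the 22 strains, with permutation of strains within series and adjustment over the 45 pairs of genes. Only Dntt and Flt3 passed, with r = 0.745 (permutation p = 0.00038, adjusted p = 0.0171) and Spearman rho = 0.657 (permutation adjusted p = 0.0499). Within the series r was 0.833 in A and 0.724 in B, and without BXD34 and BXD2, the strains farthest from the median of Dntt, it was 0.656. The adjusted p without BXD34 was 0.0527, in series A alone 0.0571 and in series B alone 0.160, and over the other alternatives it was at most 0.0499. The plot of Dntt against Flt3 shows the series overlapping, with BXD34 at the low end of both genes.

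**Figure D4:**
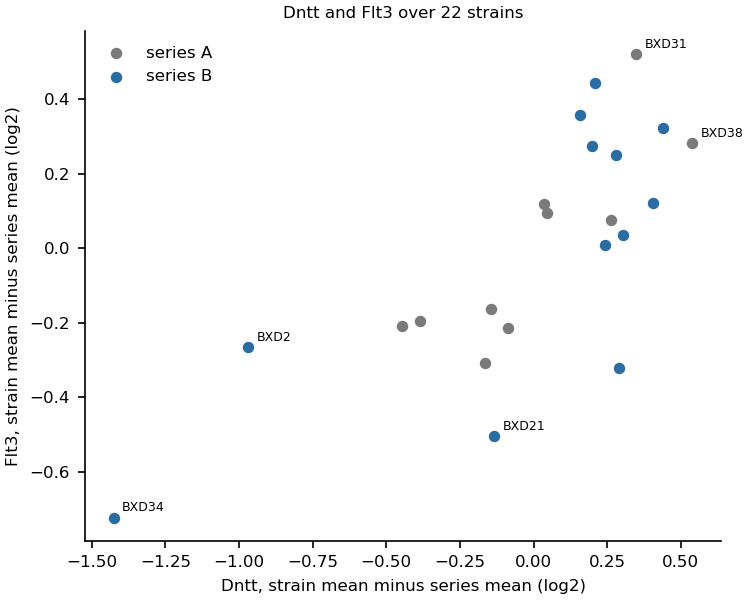
Dntt (horizontal axis) against Flt3 (vertical axis), strain mean minus series mean on the log2 scale, for 22 strains; grey is series A and blue is series B. BXD34 is lowest for both, and r is 0.745.

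The other pairs did not pass. Next by adjusted p came Rag1 and Vpreb1 (r = -0.614), Rag1 and Pax5 (r = 0.579) and Il7r and Vpreb1 (r = 0.519), each at a permutation adjusted p of 0.0504. Il7r and Blnk followed (r = 0.587, permutation adjusted p = 0.0652). The estimated share of variance between strains was -0.217 for Rag1, 0.188 for Vpreb1 and 0.208 for Pax5. It was 0.437 for Il7r and 0.119 for Blnk. Much of the spread of these strain means can thus come from arrays of the same strain. In all, 13 of 45 pairs had an unadjusted p under 0.05, with 24 positive and 21 negative values and a median r of 0.037. Dntt and Blnk, which lie next to each other on chromosome 19, had r = 0.570 (permutation adjusted p = 0.0896) and 0.514 without BXD34 and BXD2. With 1 array left out its r ran from 0.306 to 0.705, and the pair passed in 2 of those fits, without BXD11 replicate 1 (permutation adjusted p = 0.0469) and without BXD34 replicate 1 (0.0140). Vpreb1 and Igll1, which lie next to each other on chromosome 16 and act as 1 light chain, had r = -0.076 (permutation adjusted p = 0.834). Of the 38 distinct neighbour pairs looked at, up to 2 tested genes on each side of a member, r ran from -0.512 (Rag1 and Traf6) to 0.570 (Dntt and Blnk), with a median of 0.019. The only neighbour past the strain effect in these pairs was Dntt, itself a member, beside Blnk.

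Probe sets of the same gene gave a further check. The 3 Dntt probe sets correlated at r = 0.736 to 0.895 over the 22 strains. Those of Flt3 correlated at 0.060 and those of Igll1 at 0.117, so that the Flt3 result rests on 95295_s_at. With a dim partner, Pax5 gave 0.255, Blnk 0.105, Rag1 -0.141 and Vpreb1 -0.206.

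The 3 genes of 5624 most like Dntt over strains were Adgrg3, an adhesion receptor (r = 0.828), Cdca5, a cohesin regulator (r = 0.808), and Ncaph, a condensin subunit (r = 0.784). Adgrg3 was at 8.44 in BXD34 and 8.88 in BXD2, against 9.13 to 10.10 in the other series B strains, and passed the strain effect (adjusted p = 0.00490). Cdca5 and Ncaph missed the strain effect (adjusted p = 0.152 and 0.0819), and Ncaph was at 4.67 in BXD34, near the floor. Within series A r with Dntt was 0.935 for Adgrg3, 0.766 for Cdca5 and 0.416 for Ncaph. The 3 most like Flt3 were Satb1, a chromatin organizer (r = 0.885), Mrvi1, a partner of the inositol trisphosphate receptor (r = 0.772), and Dntt itself. Satb1 was at 8.33 in BXD34 and 8.74 in BXD2, against 8.49 to 9.50 in the other series B strains, and missed the threshold (adjusted p = 0.345). Mrvi1 missed it too (adjusted p = 0.625) and was at 4.37 in BXD34, near the floor. Flt3 was 12th in the order for Dntt, Il7r 257th and Cd79b 5486th.

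Genes of 4 lymphoid lists were set beside the members. The lists were chosen with earlier results of these data known, so their share past the strain effect only describes them. Of 54 tested genes 5 passed the strain effect (9.26%), against 2.60% of all 5624 tested genes: Irf8, a myeloid and lymphoid transcription factor, Runx1, a transcription factor of blood stem cells, Socs2, a brake on cytokine signals, Ltb, a lymphotoxin chain, and Ighm, the mu heavy chain. Among 21 lymphoid transcription factors Irf8 and Runx1 passed, among 16 genes of cytokine receptors and signalling Socs2 and Ltb, and among 12 genes of pre-B receptor signalling Ighm. None of 5 genes of V(D)J recombination and end joining passed by limma (2 at an unadjusted p under 0.05), the smallest adjusted p being that of Hmgb2, a DNA-bending protein (0.0995). The count over the 4 lists was 11 with the series not modelled and 0 in series A alone. Lists of cell markers also held genes past the strain effect. Among 12 tested neutrophil and monocyte genes 4 passed (Mpo, S100a8, S100a9 and Camp). Among 9 sorted-population genes 2 passed (Procr and Tie1). Later B cells gave 2 of 8 (Ighm and Jchain) and erythroid cells 1 of 5 (Hba-a1). Megakaryocytes gave 1 of 3 (Vwf), and T and NK cells 0 of 6. A share above 2.60% was thus not particular to the lymphoid lists.

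In BXD34, Irf8 was lower by 1.02 ± 0.18 (SE; adjusted p = 0.00134) and Socs2 higher by 0.87 ± 0.20 (adjusted p = 0.0201). In BXD2, Hmgb2 was lower (-1.12 ± 0.21, adjusted p = 0.00358) and the phospholipase gene Plcg2 higher (0.83 ± 0.20, adjusted p = 0.0289). In either direction, 1.14% of tested genes were called in BXD34 and 1.65% in BXD2. Ebf1, the B lineage factor, had its median array at the floor.

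Markers of the sorted population and of other cells moved in the same strains. In BXD34 the stem cell marker Procr (0.92 ± 0.17, adjusted p = 0.00332), the alpha globin gene Hba-a1 (1.80 ± 0.36, adjusted p = 0.00544) and the megakaryocyte genes Vwf and Nfe2 were higher and the myeloid progenitor gene Mpo was lower (-2.05 ± 0.42, adjusted p = 0.00714). Procr was the only one of 9 tested sorted-population genes that passed in BXD34; the list's median difference was 0.17, and Angpt1 (-1.41), Cd48 (-1.02) and Cd34 (-0.42) had values below 0. Mpo was the only one of 12 tested neutrophil and monocyte genes that passed there, with a list median of 0.09 and values above 0 for S100a9 (0.73), S100a8 (0.58) and Camp (0.56). In BXD2 the granulocyte genes S100a9, Camp and Ltf and the lysozyme gene Lyz2 were higher, by 0.82 to 1.10. They were the 4 of the 12 tested neutrophil and monocyte genes that passed in BXD2. The list's median difference there was 0.53, Lcn2 was at 0.01, and Fcgr3 (-0.60) and Csf1r (-0.05) had values below 0. The plot of summed marker levels gives each list against the 20 other arrays of the series, in linear units. The 9 sorted-population genes summed to 4772 and 4062 in BXD34 and to 4218 and 4622 in BXD2, against 3205 to 4249 (median 3571). The 14 neutrophil and monocyte genes summed to 12290 and 8965 in BXD34 and to 12357 and 13487 in BXD2, against 7123 to 10415 (median 8381). The 11 genes of later B cells summed to 5338 and 5529 in BXD34 and to 4689 and 5191 in BXD2, within the range of 2532 to 7942 (median 3453) on the other arrays. The arrays of both strains lay above that median. A linear sum weighs bright probe sets most, and Ighm was the brightest tested gene of the list (mean log2 level 10.58). Ighm differed by 0.95 in BXD34 and 1.00 in BXD2 and did not pass (limma adjusted p = 0.404 and 0.239). No gene of the list passed in either strain, and the list's median difference was 0.31 in BXD34 and -0.05 in BXD2. The 14 T and NK genes, of which Cd3d and Ncr1 had their median array at the floor, summed to 1187 and 974.0 in BXD34 and to 899 and 1045 in BXD2, within 859 to 1375 (median 1110). The 8 erythroid genes summed to 5395 and 4097 in BXD34 and to 2434 and 2479 in BXD2, against 1800 to 4253 (median 2709), and the 6 megakaryocyte genes to 2808 and 2606 in BXD34 and to 2392 and 2151 in BXD2, against 1363 to 2597 (median 1578). On series A arrays the highest sums were 4332 for sorted-population, 17895 for neutrophil and monocyte, 5299 for erythroid and 2933 for megakaryocyte genes. They were 8087 for later B cells and 1342 for T and NK cells. The part of these markers in the Dntt and Flt3 results was not tested.

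**Figure D5:**
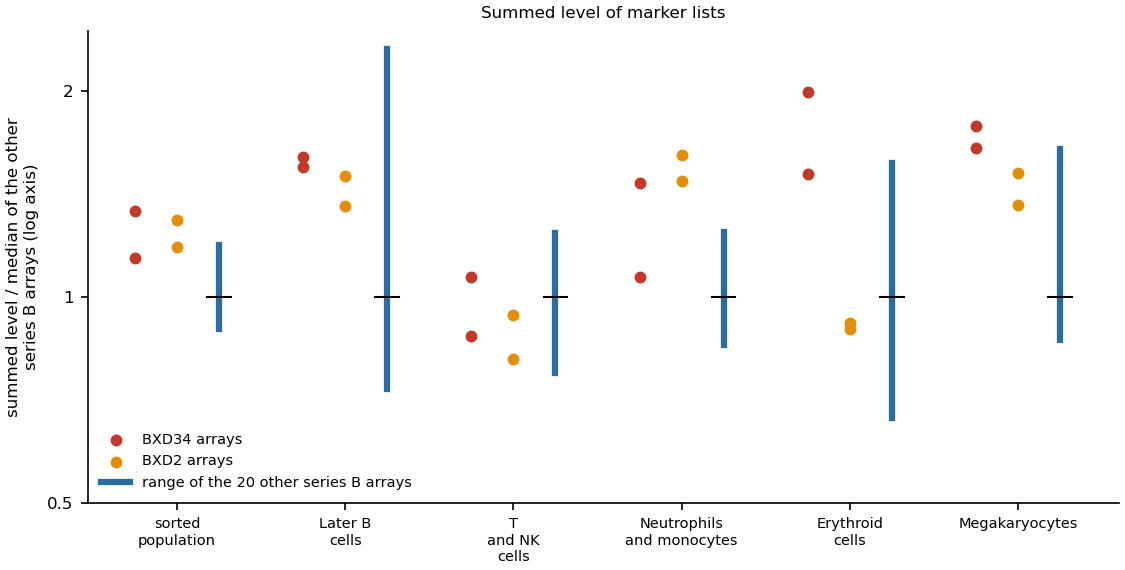
Summed linear level of 6 marker lists on the BXD34 arrays (red), the BXD2 arrays (orange) and the 20 other series B arrays (blue bar, lowest to highest; black line, median), each divided by that median, on a log axis. Both BXD2 arrays lie above all 20 others for neutrophil and monocyte genes, at 12357 and 13487 against at most 10415. So does BXD34 replicate 1, at 12290. Series A arrays, which are not drawn, reached 17895.

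The log2 ratio of the 3′ to the 5′ Gapdh control probe set was 4.14 and 3.34 on the BXD34 arrays and 3.56 and 3.69 on the BXD2 arrays, a measure of RNA quality, and lay within 2.65 to 4.20 on the other 20. With that ratio as a covariate the strain effect passed for all 3 Dntt probe sets and for Flt3 95295_s_at.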

How the data were processed

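The deposited values were intensities on a linear scale for 12488 probe sets on each of 44 arrays. The authors had scaled them before deposit, since the 2% trimmed mean of the intensities was 200.071 to 200.092 on every array; the summarising software is not given in the sources used here. Scanner parameter files were not used. Intensities under 16 were set to 16, log2 was taken, and the arrays were quantile normalized because their medians ranged from 6.55 to 6.83. Control probe sets (66) and those under the 40th percentile of mean log2 level (6.00) were left out, which left 7453 probe sets and 5624 genes, a gene being read by its brightest tested probe set. All 18 member probe sets matched the RefSeq gene table by Entrez identifier.

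The strain effect is the F test of limma 3.58.1 (R 4.3.3) over 20 contrasts within the series, and the same fit set single strains against the rest of their series. Series were compared on 22 strain means. P-values were adjusted by Benjamini-Hochberg over all tested probe sets, with a threshold of 0.05, and correlations used 100000 permutations (SciPy 1.17.1). The tests were checked on simulated data. Members and lists were chosen with earlier results of these data known. Named genes were all members, the 3 genes most like each member that passed, neighbours of members at the ends of the range of r, and list genes that passed. Some list genes that did not pass were named beside them. The alternatives were other normalizations, floors and filters, each series alone, a Gapdh ratio covariate, and leaving out arrays or strains. The number of arrays limits the precision.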

Additional observations from a re-analysis of the deposited data

Results flagged for a closer look

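One value stood apart from its group among the 18 probe sets examined over the 10 strains of series A. The mean of the dim Rag1 probe set 93683_at was 4.83 in BXD38, and the nearest strain was at 4.23. The 2 arrays of BXD38 read 5.30 and 4.35, and this probe set lay at the floor of 4 on 33 of 44 arrays. In series A 8 of the 10 strain means were at that floor, so the spread of the group is set by the floor and the distance of BXD38 from it has no test.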

How the results depend on the processing

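Of the 14 tested probe sets, 3 passed the strain effect. The count was 5 with the series not modelled, 5 without BXD40 and BXD42, 0 in series A alone and, as alternatives chosen after the values were seen, 1 without BXD34 and 0 without BXD2 and BXD34; leaving out 1 array gave 2 to 4. Single-strain differences numbered 6, against 0 in series A alone, and 4 to 7 with 1 array left out. For the series difference the count was 2, against 5 when dim probe sets were kept and 1 with a 60th percentile filter, and 2 to 3 with 1 array left out. For pairs of genes it was 1, against 3 with the 60th percentile filter, 3 without BXD40 and BXD42, 0 in series A alone and 0 without BXD34; leaving out 1 array gave 1 to 7, the highest without BXD11 replicate 1. Fits on 1 series hold fewer arrays. Series A holds neither BXD34 nor BXD2, so a fit of it alone could not hold the 6 single-strain differences. The filters change which probe sets are tested and how many pairs are adjusted over. Under the 60th percentile filter r was unchanged for Rag1 with Vpreb1 (-0.614) and with Pax5 (0.579), which then passed. Rag1 161740_r_at, in both pairs, had an estimated share of variance between strains of -0.217. The cause of the other changes was not tested. No called value changed sign under any of these alternatives. The count of lymphoid list genes past the strain effect was 5, against 11 with the series not modelled and 0 in series A alone.

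No paired analysis was possible because the replicate numbers follow accession order and do not link arrays of different strains. Signals near the floor, as for Rag1 93683_at, give only upper limits.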
